A study of Rattus norvegicus with 4 samples.

Results

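The thioredoxin, peroxiredoxin and sulfiredoxin genes described here are 10 rat genes whose products pass electrons from NADPH to peroxides and oxidised proteins. They were chosen by name, and their 11 probes were taken as all non-control probes of the array whose transcript accession belongs to 1 of these genes. They are 10 of the 16581 genes named by at least 1 probe. All 4 arrays come from NR8383 cells, an established rat alveolar macrophage line started from a lung lavage of a normal rat, which grows part adherent and part floating. The cells had gone through 20 passages and were kept in DMEM with 15% heat-inactivated fetal bovine serum, L-glutamine, penicillin, streptomycin and amphotericin B. NM403 is a carbon nanotube of the multi-walled kind, and every culture was given it for 4 h at a dose of 0.8 cm²/cm². RNA was read on 1-colour (Cy3) Agilent arrays. The series' design text calls the 4 samples biological replicates of 1 group. Unexposed controls are part of the design but were not analysed here. None of the values below is therefore a response to NM403, and no test between groups was possible.

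In this system thioredoxin reductase, a selenoenzyme, uses NADPH to reduce thioredoxin, and thioredoxin reduces the disulfides of its substrates, among them most peroxiredoxins. Peroxiredoxins remove hydrogen peroxide and organic peroxides through a reactive cysteine, and sulfiredoxin rescues the overoxidised form of the typical 2-cysteine enzymes with the help of ATP. The cytosol and the mitochondrion hold separate thioredoxins and reductases. In macrophages, which make superoxide and hydrogen peroxide when they take up particles, several of these genes are known targets of the transcription factor NRF2.

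All 4 arrays lay on 1 slide, and 45.9% to 50.8% of their 58717 non-control spots were called well above background. Feature Extraction marked replicate 4 for evaluation, with its negative-control signal out of range, and that array had 1016 outlier spots against 623 to 675 on the others. Of 14 macrophage markers measured, 12 were detected on all arrays, among them Ptprc, Cd68, Csf1r, Lyz2 and Tyrobp, while Adgre1 and Marco failed the background call on every array. Among 26 measured markers of epithelial, fibroblast, lymphoid, endothelial and neutrophil cells, 3 were detected on all arrays (Dcn, Pecam1 and Cdh5), 4 on 1 or 2 arrays and 19 on none. Replicates 1 and 3 read alike, as did replicates 2 and 4: over genes whose brightest probe was detected on all arrays, the median absolute difference was 0.07 log2 units for the first pair and 0.09 for the second. The 4 remaining pairs lay at 0.36 to 0.38. Among 1008 probes printed 10 times per array and detected on all arrays, 35.9% differed between replicates 1 and 3 by more than 3 standard errors of their spots, and 42.2% between replicates 2 and 4. In the 4 remaining pairs this share was 89.6% to 92.1%. These likenesses come from the values, the labels give no reason for them, and n = 4 rests on the labels. In bulk RNA of this kind, more cells of a type and more RNA per cell cannot be told apart.

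All 10 genes were detected on all 4 arrays, against 47.9% of named genes, and all 11 probes were, against 34.2% of non-control probes. Each of the 39 spots that these probes occupy per array was called well above background on each array. A probe counts as detected on an array where Feature Extraction, the software that gave the spot intensities, calls more than 50% of its spots well above background. Levels below are log2 processed signals minus the 75th percentile of the detected probes on the same array, given for replicates 1, 2, 3 and 4 in that order. A level of 0 is therefore the upper quartile of the detected probes. Probes differ in sequence, so levels of different genes are not set against each other.

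Txn1, the cytosolic thioredoxin, read 6.07, 6.31, 6.06 and 6.26, a level of 6.18 ± 0.13 (SD, n = 4) on a probe printed 10 times per array. Its processed signal ran from 150709 on replicate 3 to 213213 on replicate 4, and no spot was saturated. Txn2, the mitochondrial thioredoxin, read 0.37, 0.91, 0.30 and 0.87, or 0.61 ± 0.32 (SD, n = 4). Both genes were higher on replicates 2 and 4 than on replicates 1 and 3. The highest culture exceeded the lowest by 1.19-fold for Txn1 and 1.52-fold for Txn2, where the median gene had a range of 1.40-fold.

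The reductases differed from each other in how far the cultures spread. Txnrd2, the mitochondrial thioredoxin reductase, read -2.23, -2.23, -2.17 and -2.13, or -2.19 ± 0.05 (SD, n = 4). Its range of 1.07-fold was the narrowest of the 10 genes with this scaling, and 2.90% of the genes detected on all arrays had a narrower one. It was not the narrowest under other scalings: Prdx1 was narrower with the 75th percentile over all non-control probes and with the array median, and Txn1, Srxn1 and Prdx5 with quantile normalization. Without replicate 4, and with the scaling of the other arrays unchanged, the range was 1.05-fold. It was 1.37-fold when arrays were scaled on the 75th percentile over all non-control probes. Txnrd1, the cytosolic thioredoxin reductase, had 2 probes, A_44_P134070 and A_64_P076475, which carry the same transcript accession. The brighter probe, A_44_P134070, read -0.94, -0.57, -0.96 and -0.52, or -0.75 ± 0.24 (SD, n = 4). The dimmer probe, A_64_P076475, read -1.71, -2.28, -1.61 and -2.36, or -1.99 ± 0.39 (SD, n = 4).

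The Txnrd1 probes therefore ran in opposite directions. From highest to lowest, the brighter one ordered the replicates 4, 2, 1, 3 and the dimmer one 3, 1, 2, 4. The brighter probe exceeded the dimmer one by 0.76, 1.71, 0.65 and 1.85 log2 units on replicates 1 to 4. That difference is taken within an array, so no scaling that subtracts 1 value per array can move it. It varied 2.29-fold between arrays, and 2.01-fold with normexp background correction and 2.10-fold with quantile normalization, with the same array order each time. Across the array, 2375 pairs of probes named for the same gene were both detected on all arrays, and the median pair varied 1.28-fold. A range above 2-fold was seen in 10.6% of these pairs, and a range as large as that of Txnrd1 in 7.07%. Both Txnrd1 probes were printed 1 time per array, so the noise of their own spots was not measured. Probes printed 10 times had a median spot SD of 0.05 within an array. With the mean of both probes in place of the brighter one, the range of Txnrd1 was 0.153 in place of 0.446 on the log2 scale.

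**Figure D1:**
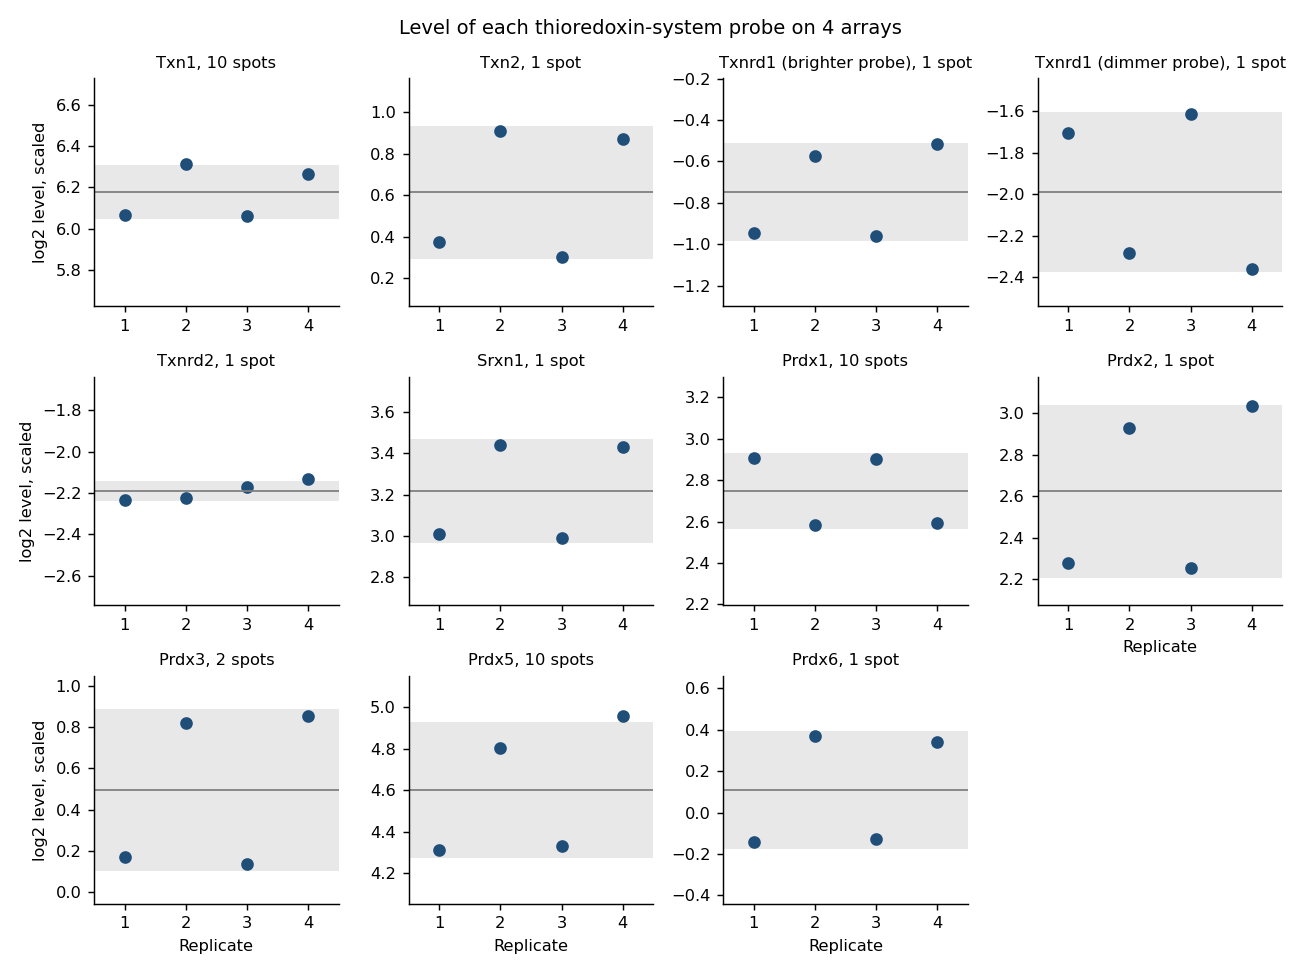
Log2 level of each of the 11 probes (vertical axis, scaled per array, 1.1 log2 units high in every panel) on replicates 1 to 4 (horizontal axis). Points are arrays, the line is the mean and the grey band is the mean ± SD (n = 4). Prdx1 and the dimmer Txnrd1 probe are higher on replicates 1 and 3, Txnrd2 is nearly flat, and the other 8 probes are higher on replicates 2 and 4.

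Sulfiredoxin and the peroxiredoxins made up the remaining 6 genes. Srxn1, the sulfiredoxin, read 3.01, 3.44, 2.99 and 3.43, or 3.22 ± 0.25 (SD, n = 4), and was higher on replicates 2 and 4. Its range was 1.37-fold, just under that of the median gene. Replicates 1 and 3 differed by 0.02 log2 units and replicates 2 and 4 by 0.01.

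Of the typical 2-cysteine peroxiredoxins, Prdx2 had the widest range of the 10 genes with the scaling used here, while with quantile normalization Prdx3, Prdx1 and Txnrd1 had wider ones (0.653, 0.597 and 0.549 against 0.533 on the log2 scale). This cytosolic enzyme, abundant in red cells but expressed widely, read 2.28, 2.93, 2.25 and 3.04, or 2.62 ± 0.42 (SD, n = 4), a range of 1.72-fold. Prdx3, the mitochondrial member, read 0.17, 0.82, 0.14 and 0.85, or 0.50 ± 0.39 (SD, n = 4), a range of 1.64-fold. Both were lowest on replicate 3 and highest on replicate 4. Prdx1, the other mainly cytosolic member, ran the other way, at 2.91, 2.58, 2.90 and 2.59, or 2.75 ± 0.18 (SD, n = 4), a range of 1.25-fold. With the scaling used here it was the only 1 of the 10 genes, by brightest probe, that read lower on replicates 2 and 4 than on 1 and 3. That order was lost under 2 other scalings.

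The atypical 2-cysteine enzyme Prdx5, found in mitochondria, peroxisomes and cytosol, read 4.31, 4.80, 4.33 and 4.96, or 4.60 ± 0.33 (SD, n = 4). Its range was 1.56-fold, and it was 1.41-fold without replicate 4, with the scaling of the other arrays unchanged. Prdx6, the 1-cysteine enzyme, uses glutathione rather than thioredoxin and also has phospholipase activity. It read -0.14, 0.37, -0.13 and 0.34, or 0.11 ± 0.28 (SD, n = 4), a range of 1.43-fold.

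The RefSeq promoter table of rat assembly GRCr8, another build than the rn4 build of the array, holds windows for 9 of the 10 genes, with 2 start sites for Txnrd1. The 250 bases before each start were searched on both strands for TGACNNNGC, the core of the antioxidant response element that NRF2 binds. A match was found in 2 of the 10 windows, where 10.1% of 33469 windows of all genes hold one. These are the windows of Prdx1 and of 1 Txnrd1 start, shown because they hold the match, which is in capitals as it reads on the printed strand. The Prdx1 match is TGACTCAGC on the opposite strand, 135 bases before the start at its far end, and it contains TGACTCA, a binding site of AP-1 factors. TGACTCAGC is found in 0.376% of all windows. The Txnrd1 match is TGACAAAGC on the opposite strand, 78 bases before that start. TGACTCA is found in 4.05% of all windows, and among these genes in those of Prdx1 and Srxn1. A match is a match of letters and not a shown site of binding, and the arrays hold no measure of binding.
Prdx1, GRCr8 chr5:135383656-135383905, plus strand: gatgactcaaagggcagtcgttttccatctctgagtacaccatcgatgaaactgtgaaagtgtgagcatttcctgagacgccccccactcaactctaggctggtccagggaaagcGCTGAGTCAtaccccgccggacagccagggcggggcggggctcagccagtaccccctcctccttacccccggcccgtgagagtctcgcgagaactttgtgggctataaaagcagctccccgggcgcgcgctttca
Txnrd1, GRCr8 chr7:22755905-22756154, minus strand: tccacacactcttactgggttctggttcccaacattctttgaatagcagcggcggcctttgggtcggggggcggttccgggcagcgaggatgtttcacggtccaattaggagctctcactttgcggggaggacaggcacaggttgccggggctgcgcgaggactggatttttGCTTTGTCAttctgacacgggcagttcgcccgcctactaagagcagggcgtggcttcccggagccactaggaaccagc

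In all, with the scaling used here, 8 of 10 genes were higher on replicates 2 and 4 than on replicates 1 and 3. Of the genes detected on all arrays, 47.3% also had this order. Prdx1 had the reverse order, as did 34.5% of those genes, and Txnrd2 had neither. These counts describe the arrays as they fell and support no grouping of them. None of the 10 genes (0 of 10) had a range above 2-fold, against 13.6% of 7935 genes. The median SD was 0.27 for the 10 genes and 0.23 for all of these genes, and the median range was 1.40-fold for both. Between replicates 1 and 3 the median absolute difference of the 10 genes was 0.02 and the largest 0.07, for Txn2. Between replicates 2 and 4 it was 0.04 and the largest 0.15, for Prdx5. In the other 4 pairs the median was 0.46 each, and Prdx2 differed the most, by 0.65 to 0.79.

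Repeated spots gave the measuring noise for 4 of the genes. Within an array, the spots of Txn1 had SDs of 0.04 to 0.06, those of Prdx1 0.04 to 0.05, those of Prdx5 0.03 to 0.07 and the 2 spots of Prdx3 0.07 to 0.10. As a coefficient of variation of the signal, this was 2.17% to 4.63% for the 3 genes printed 10 times, where the error that Feature Extraction attaches to each of their spots was 10.0%. The SD between arrays was 3.03 times the median spot SD for Txn1, 3.72 times for Prdx1, 4.82 times for Prdx3 and 7.96 times for Prdx5. For Txn1, spots on replicate 1 overlapped those on replicate 3, and their means differed by 0.01, or 0.323 combined standard errors of the spots. Txn1 on replicates 2 and 4 also overlapped, at 2.09 standard errors.

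With the scaling used here, Prdx1 gave the same picture with the order reversed. Its mean on replicates 1 and 3 differed by 0.323 standard errors and on replicates 2 and 4 by 0.462, and no spot of the first pair overlapped a spot of the second. With the 75th percentile over all non-control probes Prdx1 instead read 6.10, 6.14, 6.07 and 6.14, with replicates 2 and 4 highest. Its reversed order was also absent with the array median. Overlap of spots was read with the scaling used here alone. With the scaling used here Prdx5 was higher on replicate 4 than on replicate 2, by 0.15 log2 units or 6.44 standard errors, with no overlap of spots. Scaled on the array median, Prdx5 was lower on replicate 4, at 12.09 against 12.18. Prdx1 and Prdx3 also went from slightly higher to lower on replicate 4, so for these genes the comparison of replicates 2 and 4 turns with the scaling. Txn1 was lower on replicate 4 with the scaling used here and with the array median. With quantile normalization Txn1 was higher on replicate 4, at 6.25 against 6.13 on replicate 2. For Prdx3 the pairs 1 and 3 and 2 and 4 overlapped, on 2 spots each. These standard errors cover noise within an array alone and not the spread between cultures. On replicate 4, 3 of the 39 spots were flagged as outliers and left out, 2 of Prdx1 and 1 of Prdx5, and none was flagged on replicates 1 to 3.

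**Figure D2:**
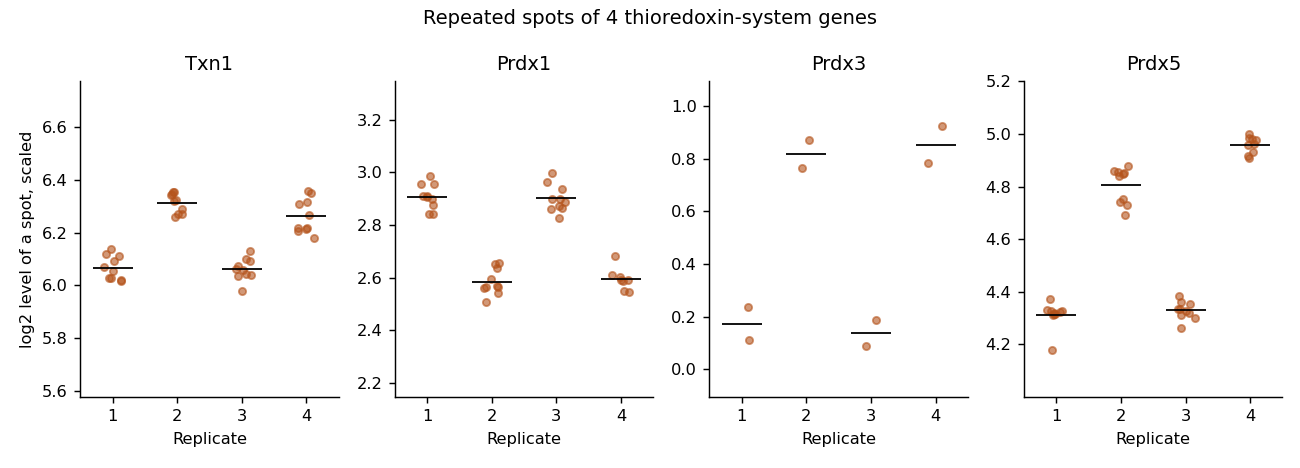
Log2 level of every spot used (points, vertical axis, scaled per array) of the 4 genes with repeated spots on replicates 1 to 4 (horizontal axis), with the array mean as a bar. With the scaling used here, spots of replicates 2 and 4 lie above those of replicates 1 and 3 for Txn1, Prdx3 and Prdx5. They lie below them for Prdx1, with no overlap between the pairs. The orders of Txn1 and Prdx1 rest on the processing.

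Because levels shift with the scaling, each gene was also read against Prdx1 on the same array. Prdx1 was picked for this after it was seen to run against the others, so the direction of these differences restates that and is no further support for it. The difference between Prdx2 and Prdx1 was -0.63, 0.35, -0.65 and 0.44 log2 units on replicates 1 to 4, so that Prdx2 had the lower signal on 2 arrays and the higher on the other 2, a change of 2.13-fold. Since the probes differ, only the change between arrays can be read from this, not which transcript was more abundant. The difference for Prdx3 was -2.73, -1.77, -2.76 and -1.74, a change of 2.03-fold. For Prdx5 it was 1.41, 2.22, 1.43 and 2.36, or 1.94-fold, and for Txn2 it changed 1.89-fold.

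The changes were 1.79-fold for Prdx6, 1.70-fold for Srxn1, 1.68-fold for the brighter Txnrd1 probe, 1.48-fold for Txn1 and 1.33-fold for Txnrd2. All 9 genes were higher against Prdx1 on replicates 2 and 4 than on replicates 1 and 3, an order that 66.9% of the other 7934 genes detected on all arrays had as well. It also held for 9 of 9 genes with normexp background correction and with quantile normalization, the settings that can move a difference within an array broadly. Scalings that subtract 1 value per array cannot move it. The 66.9% is for the signals without these 2 settings, and no share of all genes is given under them. The dimmer Txnrd1 probe went the other way here too, at -4.61, -4.87, -4.51 and -4.96 against Prdx1. With quantile normalization it was instead higher against Prdx1 on replicates 2 and 4. Such differences show that probe signals changed unequally between arrays and do not show that any 1 gene stayed constant. The 2 probes of Txnrd1 alone changed 2.29-fold against each other, more than any gene against Prdx1. Whether the cultures, the arrays or the probes account for these changes was not tested.

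**Figure D3:**
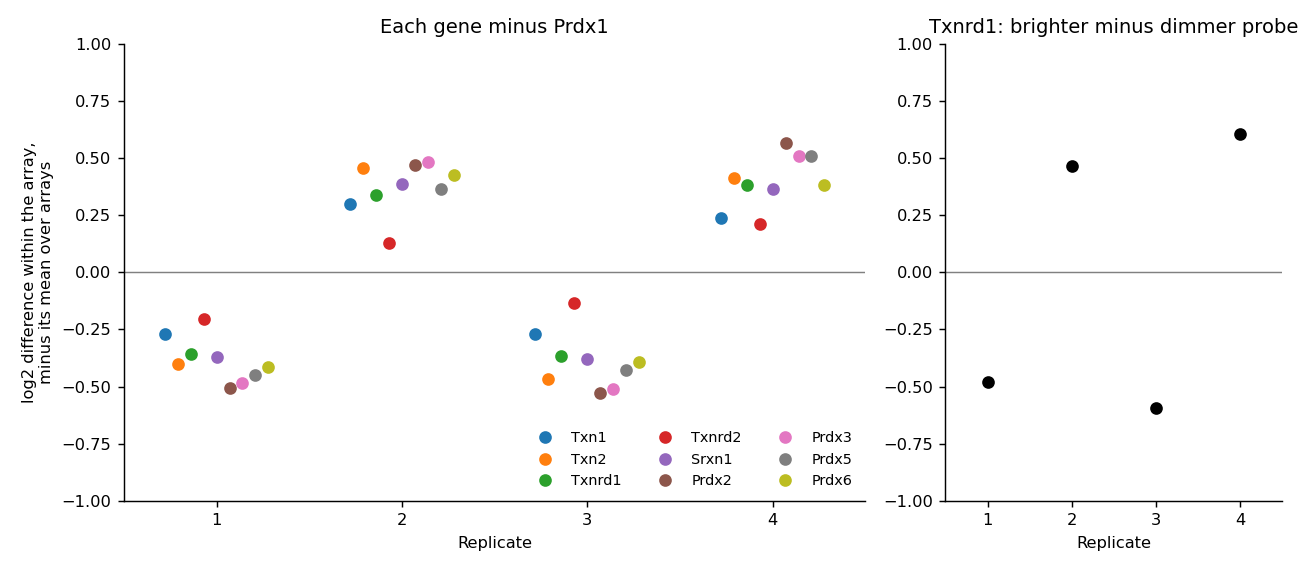
Left, the log2 difference between each of 9 genes and Prdx1 on the same array, minus its mean over the 4 arrays (vertical axis), for replicates 1 to 4 (horizontal axis, points of an array set side by side). Right, the same for the brighter minus the dimmer Txnrd1 probe. Every point of replicates 2 and 4 is above 0 and every point of replicates 1 and 3 below it, with the smallest change for Txnrd2 (1.33-fold) and the largest for the Txnrd1 probes (2.29-fold).

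For Txn1, Txnrd2 and Prdx1 the order of the arrays rests on the processing. Txn2, the brighter Txnrd1 probe, Srxn1, Prdx2, Prdx3, Prdx5 and Prdx6 were higher on replicates 2 and 4 under every scaling and correction tried. Relative to the scaling used here, the median of all genes moved by -0.20 to 0.19 log2 units on the 4 arrays with the 75th percentile over all non-control probes, by -0.23 to 0.27 with the array median and by -0.10 to 0.10 with quantile normalization. Under the 75th percentile over all non-control probes all 10 genes were higher on replicates 2 and 4, and Prdx1 varied by 1.05-fold alone. Under the array median 9 genes were, and Prdx1 kept neither order. The first of these scalings moved the median of all genes by 0.19 and 0.18 on replicates 2 and 4. On replicates 1 and 3 it moved that median by -0.17 and -0.20. The share of all genes with this order is given for the scaling used here alone, so these counts are not shown to be particular to the 10 genes. Under quantile normalization Prdx1 varied more, at 1.51-fold, and Txn1 no longer had replicates 2 and 4 highest. Under each of these the brighter Txnrd1 probe was highest on replicates 2 and 4 and the dimmer one on replicates 1 and 3.

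**Figure D4:**
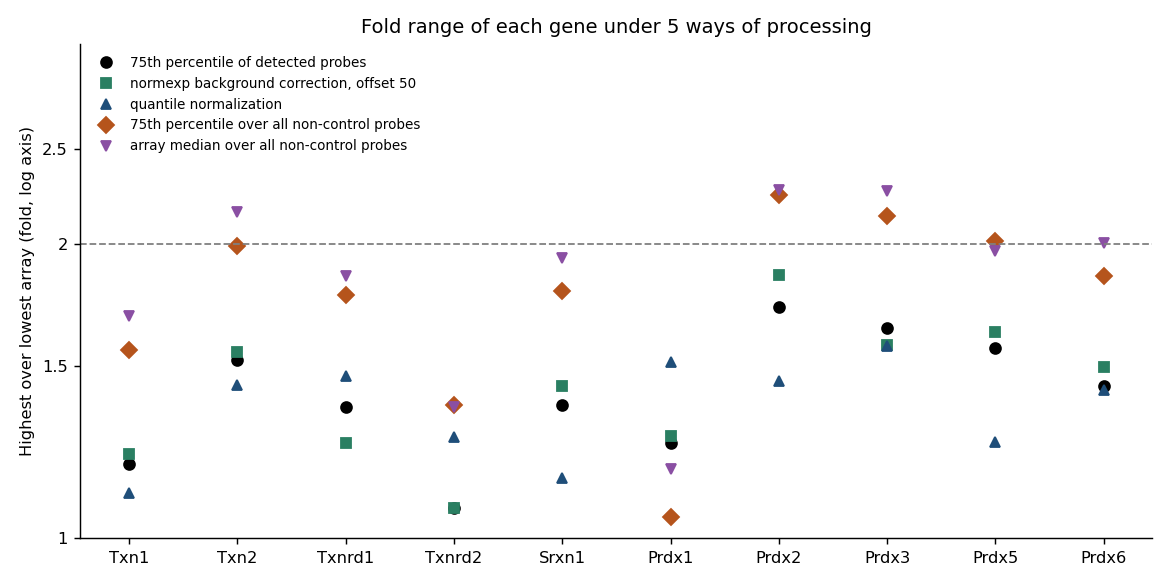
Highest over lowest array (vertical axis, fold, log axis) for the brightest probe of each gene (horizontal axis) under 5 ways of processing, with a dashed line at 2-fold. With the scaling used here (circles) the ranges run from 1.07-fold for Txnrd2 to 1.72-fold for Prdx2, and scaling on all non-control probes or on the array median takes up to 4 genes above 2-fold. The share of all genes above 2-fold is not given under those 2 scalings.

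Other genes of thiol redox control were read from lists of 34 genes, 27 of which had a named probe. Of these, 24 were detected on all 4 arrays, 2 on 1 array and 1 on none. Over all named genes, 47.9% were detected on all arrays. Among thioredoxin and peroxiredoxin relatives 12 of 13 were detected on all arrays, among glutaredoxins and glutathione reductase 4 of 4, and among substrates and partners of thioredoxin 8 of 10. Prdx4, the peroxiredoxin of the endoplasmic reticulum, read -0.72, -0.11, -0.56 and -0.04, a range of 1.60-fold, with replicates 2 and 4 highest like most of the cytosolic and mitochondrial members. Txnrd3, the reductase known mainly from testis, was above background on 1 array, with readings from -6.40 to -5.85.

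Gsr, the glutathione reductase that serves the parallel glutaredoxin branch, read -0.95, -0.80, -0.89 and -0.73, a range of 1.17-fold. Glrx, the cytosolic glutaredoxin, read 1.15, 1.23, 0.89 and 1.16, where replicate 3 stood lowest and the SD of 0.15 became 0.04 once it was left out. Taken by their brightest probes, the 24 detected genes had a median range of 1.46-fold, against 1.40-fold for all genes detected on all arrays. By these probes 1 of 24 had a range above 2-fold, against 13.6% of all genes detected on all arrays.

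That gene was Sesn3, a sestrin, of a family of stress-induced proteins that help regenerate peroxiredoxins and restrain mTORC1. It read -2.50, -4.18, -2.48 and -3.92, a range of 3.25-fold, lower on replicates 2 and 4 like Prdx1. Next in range were Txndc5, a protein disulfide isomerase, at -1.71, -1.11, -1.80 and -0.90, or 1.86-fold, and Tmx1, a membrane-bound thioredoxin relative of the endoplasmic reticulum, at 0.04, -0.83, 0.01 and -0.85, or 1.85-fold. Tmx1 was higher on replicates 1 and 3, like Prdx1, and Txndc5 on replicates 2 and 4, like Prdx2. A second Tmx1 probe, also detected on all arrays, kept that order with readings from -3.17 to -2.19. A second Txndc5 probe was above background on 2 arrays and read -5.38, -3.64, -6.11 and -6.08, so it did not keep the order of the first.

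Of the substrates and partners, Rrm2, the ribonucleotide reductase subunit that thioredoxin and glutaredoxin serve in DNA synthesis, read 1.88, 2.53, 1.93 and 2.37, a range of 1.57-fold. Its second probe, also detected on all arrays, had the same pair of arrays highest and a wider range, of 2.18-fold. Rrm1, the partner subunit, is named because its values were seen to run opposite ways on its probes, like those of Txnrd1. Its probe printed 10 times read from 0.94 on replicate 1 to 1.42 on replicate 2, and its other probe read -4.06, -4.34, -4.16 and -4.62. Txnip, the inhibitor that binds reduced thioredoxin, read -2.55, -2.49, -2.57 and -3.18, so that with this scaling replicate 4 alone set its range of 1.61-fold, which was 1.05-fold without it. Replicate 4 is the array marked for evaluation, and the part of that in the Txnip value was not tested. Map3k5, the kinase ASK1 that thioredoxin holds inactive, was above background on 1 array and Rrm2b on none.

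**Figure D5:**
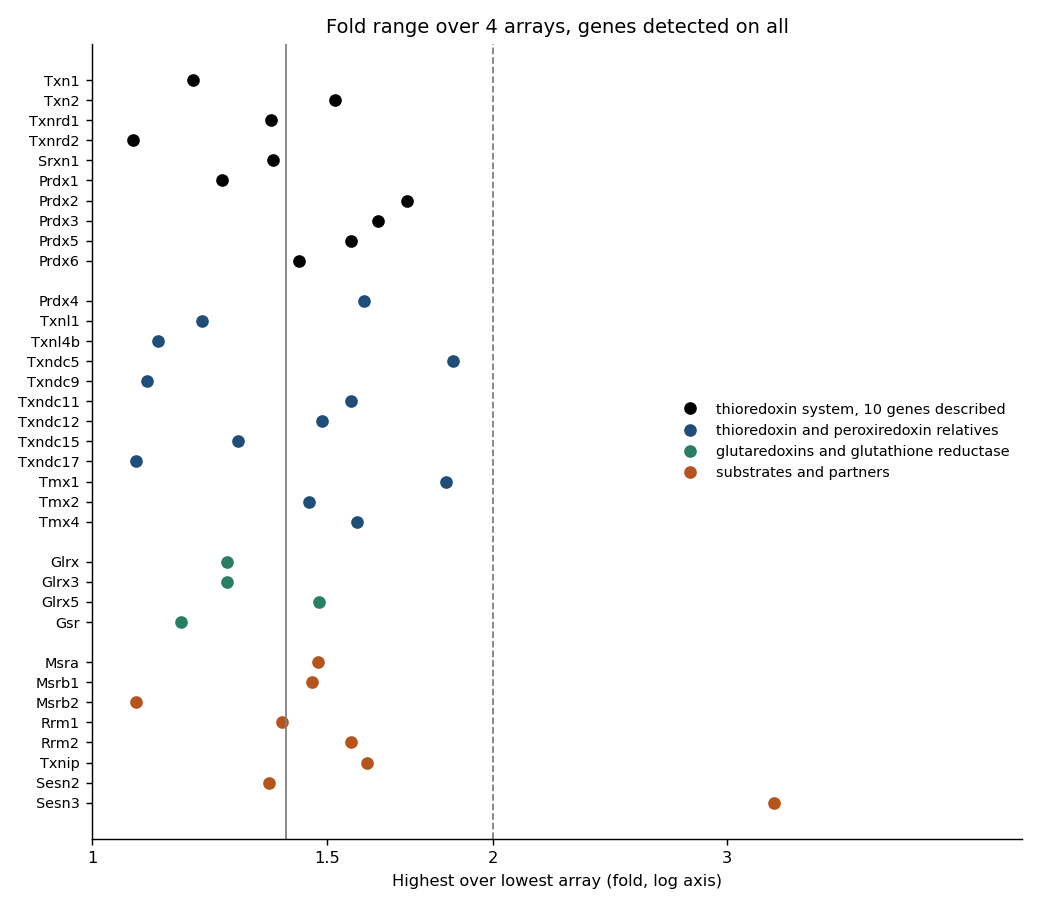
Highest over lowest array (horizontal axis, fold, log axis) for each gene whose brightest probe was detected on all 4 arrays, coloured by list. The grey line is the median of all such genes on the array (1.40-fold) and the dashed line is 2-fold, which Sesn3 alone passes, at 3.25-fold.

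Prdx2, the gene with the largest SD of the 10 with the scaling used here, was also matched to other genes by the root mean square difference of their deviations from their own means over the 4 arrays. The closest were Mt1, a metallothionein, at 0.0080, Eif2d, a translation initiation factor, at 0.0094 and Pycr1, an enzyme of proline synthesis, at 0.0095. Mt1 read -0.25, 0.41, -0.29 and 0.50. With 4 arrays that fall in pairs, such likeness is common: 646 genes lay within 0.1 of Prdx2.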

How the data were processed

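RNA of 4 NM403-exposed NR8383 cultures, 1 group, was read on 1-colour arrays of 62976 spots. The submitters' processing notes name Agilent Feature Extraction 11.0.1.1 as the source of the deposited spot intensity. Background was subtracted and spatial trends removed on each array, and arrays were not normalized to each other, per the file headers. Flags and the median spot and background intensities come from the same deposited files.

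Control spots and outlier spots (623 to 1016 per array) were left out, and spots of a probe averaged on the log2 scale. Because 34.2% of 45598 probes were detected on all arrays, each array was scaled by the 75th percentile of those probes, which hides any change in total messenger RNA. A gene took the level of its brightest probe. Accessions were matched without version to the RefSeq table of GRCr8, and 21109 probes had 1 symbol. The number of arrays limits the precision. With 1 group, no test between groups was run, and Dixon's criterion for a single array apart was the only test applied. Alternatives were normexp (limma 3.58.1, offset 50, on median signals), quantile normalization, 2 other scalings, other spot, detection, probe and floor rules, and each replicate left out. All named pathway genes followed 1 rule: those not detected on all arrays, the 3 widest ranges, and Prdx4, Txnip, Txnrd3, Glrx, Rrm2 and Gsr. Members and lists were chosen with earlier results of these data known. Array order counts, probe-pair ranges and Rrm1 were chosen after the data were seen. Summaries were tested on simulated data.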

Additional observations from a re-analysis of the deposited data

Results flagged for a closer look

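Of 22 probes and genes examined, Txnip had 1 array apart from the others. With the scaling used here, replicate 4 read -3.18, against -2.57 to -2.49 on replicates 1 to 3, and its gap was 0.893 of the whole range, above Dixon's 95% critical value for 4 samples. Chance flags about 1 in 20 such groups, and 2.02% of the 7935 genes detected on all arrays passed the same value. No probe of the 10 thioredoxin-system genes did.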

How the results depend on the processing

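Detection was 10 of 10 genes and 11 of 11 probes under all 12 alternatives, but it could not have come out otherwise. Normexp, quantile normalization, the 2 other scalings and the probe and floor rules use the same background calls. The other alternatives change which spots or arrays count, and all 39 spots per array were called well above background. Detection is therefore no measure of robustness here. The number of genes with a range above 2-fold was 0 as reported, 3 with the 75th percentile over all non-control probes (Prdx2, Prdx3 and Prdx5) and 4 with the array median (Txn2, Prdx2, Prdx3 and Prdx6); it was 0 under the others. Only the scaling differs there, and which is closer to the amounts of RNA was not tested. The share of all genes above 2-fold, 13.6%, is given for the scaling used here alone. The counts of 3 and 4 therefore have no share of all genes beside them and are not shown to be particular to these genes. The median SD was 0.48 and 0.46 under these 2 scalings and 0.27 under the other settings, and 0.26 to 0.28 with each replicate left out. Of 168 values recomputed, 147 moved by less than the spread between replicates or, for counts, not at all, and 21 moved further. The 147 include detection counts, which could not move. They also include values that the floor rule, and for genes with 1 probe the probe rule, leave as they were. The 147 is therefore no measure of stability. No paired analysis was possible because the labels give 1 group. A bright patch can raise single spots: of 156 spot readings of these genes, 22 had a neighbouring spot brighter by 4-fold or more than on the remaining arrays, and none had more than 2 such neighbours.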
